A study of Homo sapiens with 18 samples.

Results

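GR binding regions (GBR) were followed from cells depleted of Hic-5 alone (siHic5/siNS) to cells depleted of both BRM and Hic-5 (siBRM/siHic5). A siHic5/siNS GBR was counted as kept when at least 1 bp of it was covered by a siBRM/siHic5 peak and as lost otherwise, and a siBRM/siHic5 GBR that overlapped no siHic5/siNS peak was counted as new. Of 9533 siHic5/siNS GBR, 6231 were lost and 3302 were kept. Of 3383 siBRM/siHic5 GBR, 63 were new.

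The cells were U2OS-GRα, a derivative of the U2OS osteosarcoma line that carries a stably introduced gene for the glucocorticoid receptor α. In both groups 48 h of siRNA treatment preceded 1 h with 100 nM of dexamethasone (dex), a synthetic glucocorticoid. The siHic5/siNS cells received Hic-5 siRNA together with nonspecific control siRNA, and the siBRM/siHic5 cells received BRM siRNA together with Hic-5 siRNA, so both groups were depleted of Hic-5 and differed in BRM. Each group had 2 ChIP-seq replicates, made on different days, and 1 input library, in a series of 12 ChIP-seq libraries and 6 siRNA combinations. The 2 replicates of a group had been pooled by the authors into 1 peak list, so the lists analysed here carry no spread between replicates, and no p-value is given for any comparison of them. The intervals given for shares are 95% Wilson intervals that cover counting error over GBR only. No RNA was measured in these libraries, so neither the identity of the cells nor the depth of the siRNA depletion could be checked from the lists, and the read depth behind each list was not recomputed.

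BRM, encoded by SMARCA2, is an ATPase of the SWI/SNF complex, which uses the energy of ATP to move or evict nucleosomes and so opens DNA to transcription factors. GR is a nuclear receptor that enters the nucleus upon binding a glucocorticoid and binds DNA as a dimer at the glucocorticoid response element (GRE), a palindrome of hexamer half-sites, often beside sites of other factors such as AP-1. Hic-5, encoded by TGFB1I1, is a focal adhesion protein and a coregulator of steroid receptors.

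Summit sequences of some of the strongest GBR of each class are shown first, since the comparison turns on which sites keep a called peak. Each is 100 bases of the plus strand of GRCh38 centred on the summit, in lower case, with matches to the GRE, to the AP-1 motif (TGACTCA or TGAGTCA) or to the ETS motif (CCGGAAGT or CAGGAAGT) in capitals. A GRE match was the 15-base palindrome with its half-sites 3 bases apart and at most 1 mismatch at its 10 defined positions, and all motifs were sought on both strands. Among lost GBR, 3 of the strongest lay in an intron of RUNX1, upstream of COL8A1 and downstream of SH3GLB1, the last 2 named by the nearest protein-coding transcription start site (TSS). They were the 2nd, 3rd and 5th strongest lost GBR. These 3 carried 1 GRE match each within 100 bases, whereas the strongest and the 4th lost GBR, not shown, had no GRE match even within 1 kb, and 1 further lost sequence, not reported here, had none of the 3 motifs in its 100 bases:
RUNX1 lost, chr21:34965566-34965665: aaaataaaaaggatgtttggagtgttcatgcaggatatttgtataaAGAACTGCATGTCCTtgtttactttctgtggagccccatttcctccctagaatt
COL8A1 lost, chr3:99543346-99543445: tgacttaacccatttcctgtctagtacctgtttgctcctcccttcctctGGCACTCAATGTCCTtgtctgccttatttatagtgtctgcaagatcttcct
SH3GLB1 lost, chr1:86788792-86788891: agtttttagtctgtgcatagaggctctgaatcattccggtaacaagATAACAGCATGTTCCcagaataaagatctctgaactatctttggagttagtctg

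The 4 strongest kept GBR whose sequence overlaps no UTR were an intronic site of IP6K3, a site in FKBP5 for which ARMC12 has the nearest TSS, a site beside the MT2A promoter and an intronic site of HIF3A. All 4 carried 1 GRE match at the summit and no AP-1 or ETS match within 100 bases:
IP6K3 kept, chr6:33746256-33746355: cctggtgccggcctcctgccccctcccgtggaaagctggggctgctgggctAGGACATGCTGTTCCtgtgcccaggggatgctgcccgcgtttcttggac
ARMC12 kept, chr6:35728058-35728157: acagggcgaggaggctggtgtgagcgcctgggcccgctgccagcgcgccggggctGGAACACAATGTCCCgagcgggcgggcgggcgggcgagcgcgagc
MT2A kept, chr16:56608269-56608368: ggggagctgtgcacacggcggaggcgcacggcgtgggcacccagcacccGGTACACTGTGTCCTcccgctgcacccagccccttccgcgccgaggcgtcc
HIF3A kept, chr19:46301020-46301119: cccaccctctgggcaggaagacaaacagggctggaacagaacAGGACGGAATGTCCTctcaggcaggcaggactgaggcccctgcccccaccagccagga

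The 3 strongest new GBR included 1 with an AP-1 match, in VAC14 near the TSS of MTSS2, 1 with a GRE match, in MYBPH, and 1, near PSG1, with none of these motifs in the 100 bases:
MTSS2 new, chr16:70694212-70694311: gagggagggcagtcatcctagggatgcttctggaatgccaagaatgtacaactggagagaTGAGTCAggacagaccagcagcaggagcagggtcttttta
PSG1 new, chr19:42851556-42851655: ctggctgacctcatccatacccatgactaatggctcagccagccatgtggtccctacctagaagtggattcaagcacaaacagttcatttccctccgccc
MYBPH new, chr1:203172857-203172956: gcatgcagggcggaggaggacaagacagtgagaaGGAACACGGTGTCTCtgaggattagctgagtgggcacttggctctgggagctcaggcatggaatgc

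The share of siHic5/siNS GBR that were lost was 65.4% (95% interval 64.4 to 66.3), and the share of siBRM/siHic5 GBR that were new was 1.86% (1.46 to 2.38). Losses therefore made up most of the difference between the lists, and nearly all peaks of the doubly depleted cells were already peaks after Hic-5 depletion alone. Edges of peaks mattered little: 76 of the lost GBR had a siBRM/siHic5 peak within 500 bp, and 23 kept GBR overlapped more than 1 siBRM/siHic5 peak. The lists were not called to the same depth of significance, the weakest peak having a −log10 q-value of 8.91 in siHic5/siNS and of 14.2 in siBRM/siHic5. When both lists were held to the higher of these values, 50.5% (49.3 to 51.7) of 6387 siHic5/siNS GBR were lost and 5.94% (5.19 to 6.79) of the siBRM/siHic5 GBR were new. With lists of equal length, the 3383 strongest peaks of each, 23.4% (22.0 to 24.9) of the siHic5/siNS GBR were lost. At equal length the numbers lost and new must be nearly the same, so that setting gives the overlap of the strongest peaks and says nothing of losses against gains. The share lost thus depended on where each list ended, and the part of read depth in the length of the lists was not tested.

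Whether a GBR was kept followed its strength after Hic-5 depletion alone, read from the −log10 p-value that MACS2 gave it in the siHic5/siNS list. The list was divided by this value into 10 strength groups of equal size, from group 1, the strongest, to group 10. In group 1, 12 of 954 GBR were lost, or 1.26% (0.721 to 2.19). The share lost was 12.4% (10.4 to 14.6) in group 2, 39.4% (36.4 to 42.6) in group 3, 59.8% (56.7 to 62.9) in group 4 and 77.2% (74.5 to 79.8) in group 5. It was 85.0% in group 6 and between 90.7% and 96.4% in the remaining 4. All GBR of groups 1 to 6 had a −log10 q-value at or above the lowest one called in siBRM/siHic5, and none of groups 8 to 10 did. The middle −log10 p-value was 47.4 in kept GBR (quartiles 30.8 and 74.9) and 17.7 in lost GBR (14.3 and 23.5), and the ranges overlapped widely, from 12.1 to 316.8 in kept and from 12.01 to 117.7 in lost GBR. Kept GBR were also wider, with a median of 631 bp against 456 bp. Width itself fell with strength, from a median of 791.5 bp in group 1 to 399 bp in group 10. It was not compared at matched strength.

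**Figure D1:**
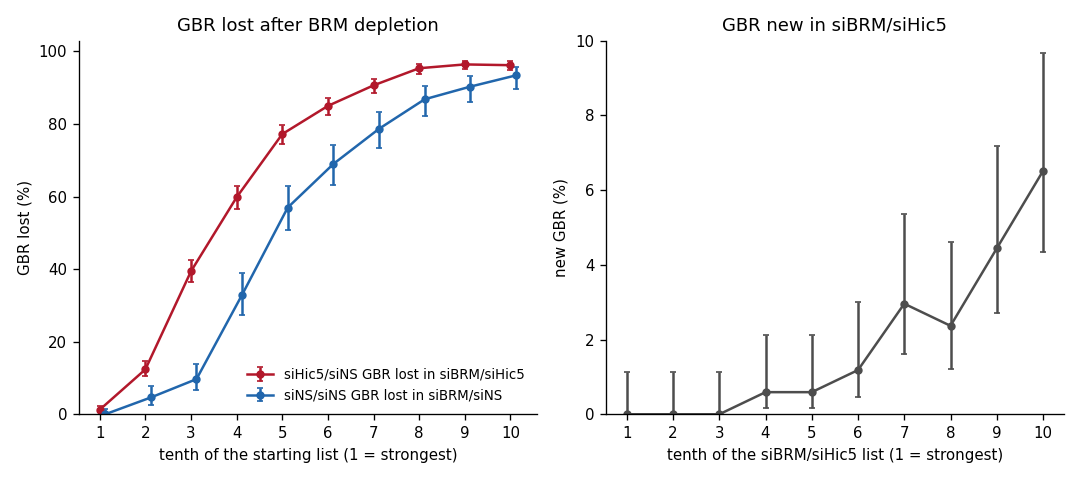
Left, percent of GBR lost after BRM depletion in each of 10 strength groups of the starting list by −log10 p-value (1 is the strongest), for siHic5/siNS against siBRM/siHic5 and for siNS/siNS against siBRM/siNS, and right, percent of siBRM/siHic5 GBR that are new in each strength group of that list; bars are 95% Wilson intervals. Loss in Hic-5 depleted cells went from 1.26% in the strongest group to 90.7% or more in the 4 weakest, and new GBR were found from group 4 on.

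New GBR sat in the weak part of the siBRM/siHic5 list. All 1245 peaks ranked above the best new GBR overlapped a siHic5/siNS peak, and 59 of the 63 new GBR ranked below the middle of the list. In the 3 strongest of 10 groups of this list 0 of 1017 GBR were new, while 22 GBR, or 6.51% (4.34 to 9.66), were new in the weakest. The 0 allows a share of up to 0.295%, taken as 3 counts over 1017 and not as a Wilson interval. The median −log10 p-value of new GBR was 20.7, with a range of 17.9 to 41.6, and their median width was 424 bp. Most stood away from earlier sites, at a median distance of 37.97 kb from the nearest siHic5/siNS summit, and 15 lay within 10 kb of one. Of the 63, 45 were called in no other list of the series and 10 were called in siNS/siNS, the cells that contain Hic-5 and BRM.

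The kept GBR stayed in place. The summits of the matched peaks were a median of 18 bp apart, and 87.0% of the pairs lay within 50 bp. Of the kept GBR, 81.7% were narrower in siBRM/siHic5, with median widths of 631 and 519 bp. The −log10 p-value was a median of 47.4 in siHic5/siNS and 33.5 in siBRM/siHic5, and 28.7% of kept GBR had the higher value in siBRM/siHic5, among them 25.7% of group 1 and 61 of the 100 strongest. No siBRM/siHic5 peak had a value below 17.8. Kept GBR below 17.8 in siHic5/siNS therefore had the higher value in siBRM/siHic5 by construction. All kept GBR of groups 8 to 10 were among them. Of the 100 strongest kept GBR, 78 were also among the 100 strongest of the matched peaks in siBRM/siHic5. Spearman's rho between both sets of values was 0.76 across the 3302 GBR, which share libraries and are not independent. A −log10 p-value depends on read depth, so its level was not compared between the lists as a measure of binding.

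**Figure D2:**
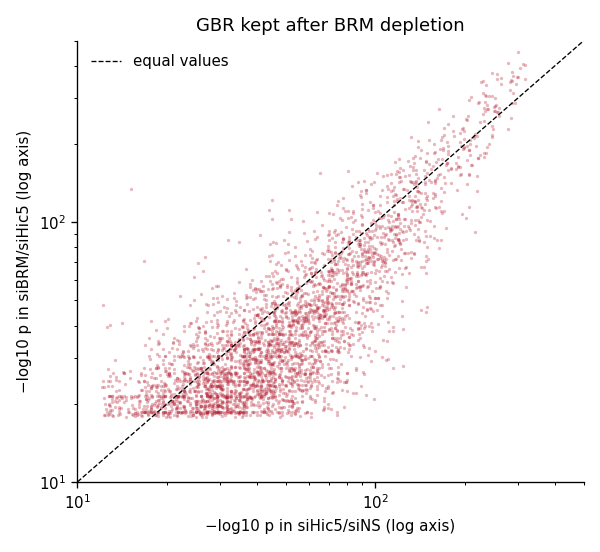
The −log10 p-value of each of the 3302 kept GBR in siHic5/siNS (x axis) and in the overlapping siBRM/siHic5 peak (y axis), both on log axes, with a dashed line at equal values. Most points lie below the line, also in strength group 1, where 25.7% lie above it, whereas 61 of the 100 strongest lie above it. The floor of the y axis values is the lowest value called in siBRM/siHic5, 17.8. Points with an x value below 17.8 therefore lie above the line by construction.

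The 10 strongest kept GBR were the 10 strongest of the whole siHic5/siNS list. The strongest lay 0.599 kb from the TSS of IP6K3, an inositol hexakisphosphate kinase, with a −log10 p-value of 316.8 in siHic5/siNS and 354 in siBRM/siHic5, where it ranked 15th. The site at NFKBIA, which encodes the NF-κB inhibitor IκBα, had 316.3 and 403 and ranked 4th in siBRM/siHic5. The site in FKBP5, a co-chaperone of GR that glucocorticoids induce in most tissues, had 313 and 405 and ranked 3rd. The metallothionein genes, whose products bind zinc and other metals, had 2 of these sites, at 306 and 392 beside MT2A and at 294 and 287 beside MT1E. The site in HIF3A, a subunit of the hypoxia-inducible factors, ranked 5th in siHic5/siNS at 300.02 and 1st in siBRM/siHic5 at 451. The remaining 4, nearest to NPTX2, UBE2QL1, CDKN2AIPNL and CPNE7, ranked 11th to 26th in siBRM/siHic5. Each of the 10 was called in all 6 lists of the series and carried at least 1 GRE match in the 1 kb at its summit. The site nearest UBE2QL1 held 9 matches.

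The strongest lost GBR were few and were not the top of the list. The first ranked 338th, 27.2 kb upstream of DUSP4, a phosphatase that inactivates MAP kinases, with a −log10 p-value of 118 in siHic5/siNS, and it had an AP-1 but no GRE match in 1 kb. It was called in siNS/siNS and in siBRM/siNS, so its peak was missing from siBRM/siHic5 but present in the cells depleted of BRM that still had Hic-5. The second, in an intron of RUNX1, a transcription factor of blood and bone cells, had 103.5 and ranked 444th. The third, at 81.2, lay 95.2 kb upstream of COL8A1, a short-chain collagen gene. Others of the 10 were nearest to KCNQ3, SH3GLB1, PRR16, TBX3, MCHR1 and GGTLC2, with −log10 p-values of 71.5 to 80.3. Of these 10, 2 were called in siBRM/siNS (those nearest DUSP4 and MCHR1), and 2 (those nearest KCNQ3 and SH3GLB1) were called in none of the other 4 lists. GRE matches were present in the 1 kb at 5 of the 10, against 10 of the 10 strongest kept GBR, which were much stronger.

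The strongest new GBR lay in an intron of VAC14, 8.21 kb upstream of the TSS of MTSS2, with a −log10 p-value of 41.6 and rank 1246 in siBRM/siHic5, and it was also called in siNS/siNS. The second, nearest to PSG1, a pregnancy-specific glycoprotein gene, had 39.3. The others of the 10 were nearest to MYBPH, GUCA1C, LCN12, LRTM1, TMX4, INHBA, TRIM38 and FSTL3, with values of 27.4 to 34.8. INHBA encodes a subunit of activin and FSTL3 an inhibitor of activin. The site nearest INHBA was 369 kb from its TSS, and that nearest FSTL3 was 1.83 kb upstream.

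Lost and kept GBR lay at like distances from genes. Of the siHic5/siNS GBR within 1 kb of a protein-coding TSS, 67.2% (62.6 to 71.5) of 433 were lost, against 68.4% lost among all siHic5/siNS GBR of the same strength groups, called the same strength from here on. The share lost was 64.3% (61.6 to 66.9) at 1 to 10 kb and 66.6% (64.9 to 68.2) at over 100 kb, each within 0.2 percentage points of the share for GBR of the same strength. With strength matched over the 10 groups, the share within 10 kb of a TSS was 0.525 percentage points higher in kept GBR, with an interval of −1.67 to 2.72. Loss was 66.6% (65.2 to 68.0) in introns and 64.6% (63.2 to 65.9) between genes. In coding exons 54.4% (46.0 to 62.5) of 136 GBR were lost, against 63.5% at the same strength, which lay outside the interval. By chromosome the share ran from 58.8% (52.1 to 65.2) on chromosome 19 to 72.5% (63.2 to 80.3) on chromosome 21, so both ends of the range had wide intervals.

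A smaller share was lost among GBR that stood close together, which were also stronger. With another siHic5/siNS GBR within 5 kb, 59.2% (57.1 to 61.2) of 2118 were lost, and with none within 100 kb, 69.5% (67.8 to 71.3) of 2656 were lost. GBR of the same strength gave 58.3% and 69.8%, so these shares lay within 1 percentage point of what strength alone gave. GC content of the 1 kb at the summit averaged 48.7% (SD 8.45 over 3302 GBR) in kept and 47.1% (SD 8.33 over 6231) in lost GBR. Among 4 groups of GBR by GC content, 58.7% (56.7 to 60.6) were lost in the highest, a difference of −2.96 percentage points from GBR of the same strength, and 70.9% (69.0 to 72.7) in the lowest, a difference of 1.74 points.

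GRE matches with at most 1 mismatch followed strength. AP-1 and ETS matches differed between kept and lost GBR of the same strength. GRE without mismatch did so as well, with fewer checks. Shares are of GBR with at least 1 match in the 1 kb centred on the summit, and windows 5 kb to either side served as local background. GRE matches were present at 61.9% (60.2 to 63.5) of kept, 49.1% (47.9 to 50.4) of lost and 42.9% (31.4 to 55.1) of new GBR, against 12.8% and 12.4% in the windows beside kept and lost GBR. With strength matched, the difference of kept minus lost was −0.124 percentage points (−3.10 to 2.85). GRE without any mismatch were present at 16.0% of kept and 8.73% of lost GBR, and the matched difference was 2.87 points (0.928 to 4.804). Finer strength groups, the signal value, a common threshold and GC content were not run for it, so remaining differences of strength within the 10 groups were not tested. Where a GRE was present it lay a median of 14.5 bp from the summit in kept and 24.5 bp in lost GBR, without matching for strength.

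AP-1 is a dimer of FOS and JUN family proteins that binds many enhancers before GR arrives. AP-1 matches were present at 41.0% (39.3 to 42.7) of kept, 34.99% (33.8 to 36.2) of lost and 42.9% (31.4 to 55.1) of new GBR, with 16.5% and 16.4% in the windows beside kept and lost GBR. At matched strength the share was 7.37 points (4.46 to 10.3) higher in kept GBR, and in 9 of the 10 strength groups GBR with an AP-1 match were lost less often than those without. In group 4, 53.3% (48.1 to 58.5) of GBR with a match were lost and 63.6% (59.7 to 67.3) of those without. GBR with both a GRE and an AP-1 match were lost in 53.1% (50.6 to 55.5) of 1651 cases, those with a GRE alone in 63.3% (61.6 to 64.9), those with AP-1 alone in 69.3% (67.2 to 71.3) and those with neither in 73.3% (71.5 to 74.96). The differences from GBR of the same strength were −2.12, 1.05, −2.25 and 1.62 points in this order, so the difference with AP-1 was alike with and without a GRE. With 2 or more AP-1 matches 60.1% (56.6 to 63.6) were lost, a difference of −4.59 points from GBR of the same strength.

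ETS factors bind a GGAA core and act at many promoters and enhancers. ETS matches were present at 10.4% (9.39 to 11.5) of kept, 12.2% (11.4 to 13.05) of lost and 6.35% (2.50 to 15.2) of new GBR, the last being 4 GBR. At matched strength the difference of kept minus lost was −3.76 points (−5.68 to −1.84), and in all 10 strength groups GBR with an ETS match were lost more often than those without. In group 3, 47.7% (39.3 to 56.2) of those with a match and 38.1% (34.9 to 41.5) of those without were lost. With CCGGAAGT alone the difference was −0.293 points (−1.13 to 0.544), so it was not seen without CAGGAAGT.

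**Figure D3:**
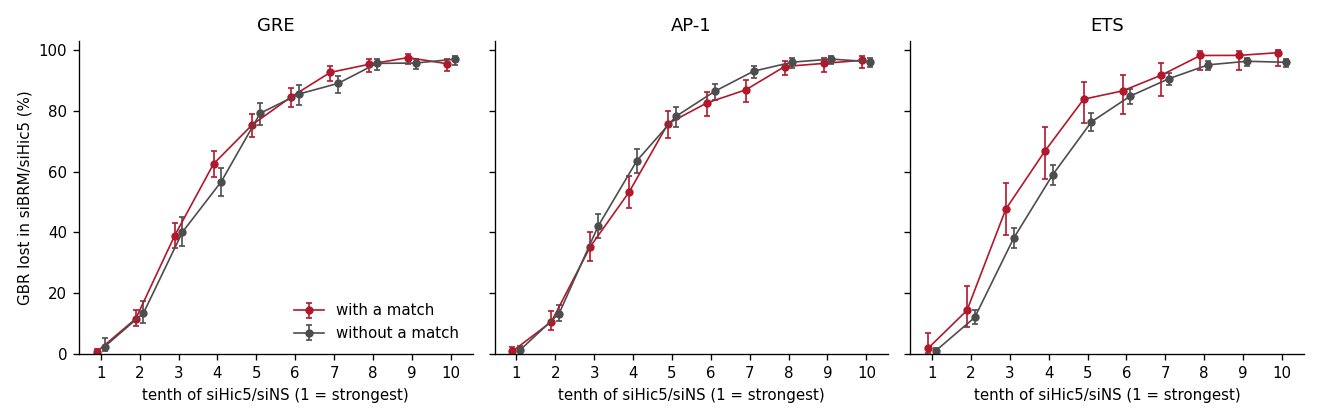
Percent of siHic5/siNS GBR lost in siBRM/siHic5 in each strength group (1 is the strongest), for GBR with and without a GRE, AP-1 or ETS match in the 1 kb at the summit; bars are 95% Wilson intervals. The curves for GRE cross, those with an AP-1 match lie below those without in 9 of 10 groups, and those with an ETS match lie above in all 10.

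Among the other motifs, matched differences above 0 were seen for TEAD sites (ACATTCC), with 4.12 points (1.55 to 6.68), and for RUNX sites (AACCACA), with 3.399 points (0.937 to 5.86). C/EBP sites (TTGCNNAA) were less frequent in kept GBR, with −3.53 points (−6.46 to −0.602). Without matching they were present at 39.5% of kept and 41.3% of lost GBR. The windows beside kept and lost GBR had 39.0% and 40.7%, so nearby DNA differed in the same direction. Matching on GC content was not run for TEAD, RUNX or C/EBP. FOX sites (TGTTTAC) gave −0.690 points (−2.82 to 1.44), and the GRE half-site AGAACA gave −2.45 (−5.29 to 0.390). The half-site, C/EBP and FOX letters were also present in 54.4%, 40.7% and 12.9% of the windows beside lost GBR, and those of RUNX, TEAD and ETS in 17.1%, 13.9% and 6.73%. At the lost GBR themselves the shares were 67.7%, 41.3% and 15.0% for the half-site, C/EBP and FOX and 20.3%, 21.4% and 12.2% for RUNX, TEAD and ETS, so much of each share was also found in nearby DNA.

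**Figure D4:**
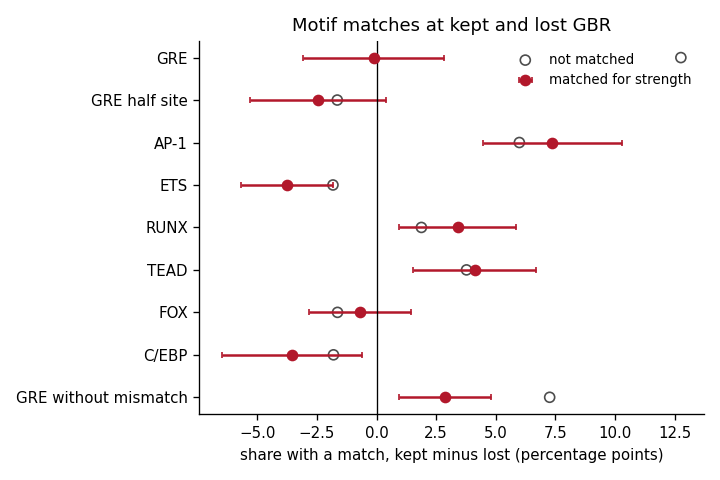
Share of GBR with a motif match in the 1 kb at the summit, kept minus lost, in percentage points; filled points are matched over 10 strength groups with 95% intervals from counting error, open points are not matched. For the GRE with at most 1 mismatch the difference of 12.8 points without matching became −0.124 with it. The GRE without mismatch, AP-1, TEAD and RUNX stayed above 0, and ETS and C/EBP below.

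Most kept GBR had a peak in cells that contain Hic-5 as well. A siNS/siNS peak overlapped 64.2% (62.6 to 65.8) of kept and 5.68% (5.13 to 6.28) of lost GBR, and a siBRM/siNS peak 36.6% (35.02 to 38.3) and 0.594% (0.431 to 0.817). These shares were not matched for strength, and kept GBR were much stronger than lost ones. When the comparison of motifs was restricted to the 7059 GBR with no siNS/siNS peak, the matched AP-1 difference was 11.3 points (7.73 to 14.8), that for ETS −3.05 (−5.48 to −0.618) and that for GRE −4.60 (−8.16 to −1.04), a restriction chosen after seeing the data.

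BRM was depleted in Hic-5 containing cells as well, from separate libraries, and there 52.2% (50.3 to 54.1) of 2582 siNS/siNS GBR were lost in siBRM/siNS and 3.13% (2.31 to 4.23) of siBRM/siNS GBR were new. Whether this share lost was below that in Hic-5 depleted cells, 65.4%, depended on the thresholds. With each pair held to the higher of its 2 lowest −log10 q-values, 59.7% were lost with Hic-5 present and 50.5% in Hic-5 depleted cells. With lists of equal length these shares were 20.3% and 23.4%. The order by strength was of the same kind: 0 of 259 GBR of the strongest group were lost, with an interval of up to 1.46%. The share was 9.69% (6.65 to 13.9) in group 3, 57.0% (50.9 to 62.9) in group 5 and 93.4% (89.7 to 95.8) in the weakest. Strength groups of lists of unequal length are not the same sites, so the shares stand side by side without a test. At the 2474 siHic5/siNS GBR that were also called in siNS/siNS, 2.64% (1.88 to 3.71) of the 1211 kept with Hic-5 present were lost in Hic-5 depleted cells, against 25.5% (23.2 to 28.0) of the 1263 lost with Hic-5 present. Within group 2 of siHic5/siNS strength these shares were 1.06% (0.361 to 3.07) of 283 and 8.99% (6.44 to 12.4) of 356, and within group 3 6.67% (3.27 to 13.1) of 105 and 25.2% (20.3 to 30.8) of 262. A site without a peak after BRM depletion in one setting was thus more often without one in the other, also within these groups, although most sites lost with Hic-5 present were kept in Hic-5 depleted cells.

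At the level of genes, most of those with 3 or more GBR had both lost and kept ones. The siHic5/siNS GBR were nearest to the TSS of 4715 protein-coding genes, of which 2468 lost all of their GBR, 980 kept all and 1267 had both. Of the 1056 genes with 3 or more GBR, 206 lost all, 26 kept all and 824 had both. With 65.4% of all siHic5/siNS GBR lost, genes with several GBR would often have both kinds. The counts that this share and strength would give were not computed. At 1167 of the 1267 mixed genes the strongest GBR was a kept one, which restates the order by strength given above.

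The 6 genes with the most GBR that lost all of them were ACTL7B with 9, FOSL2 with 8, HSBP1, MYO10 and ADARB1 with 7 each and KCNQ3 with 6. A gene here is only the one with the nearest TSS, at any distance. The GBR of ACTL7B lay 66.0 to 288 kb and those of HSBP1 80.8 to 560 kb from the TSS. FOSL2, which encodes the AP-1 subunit FRA2, had GBR from 0.184 to 123 kb from its TSS with −log10 p-values of 12.9 to 31.7. MYO10, an unconventional myosin of filopodia, had values of 13.8 to 26.6, and ADARB1, an adenosine deaminase that edits RNA, of 12.9 to 30.5. The highest value at KCNQ3 was 80.3. The GBR of the other genes that lost all had values of at most 43.997, so none of them was in strength groups 1 or 2. The 6 genes that kept all were ADRA1B with 8 GBR, ZEB2 with 6, PYGB with 5 and PIAS1, FNDC3A and TNS4 with 4 each. Those of ZEB2 lay 92.9 to 1386 kb from its TSS. ADRA1B encodes an adrenergic receptor, and its GBR ran from 23.9 to 164 in −log10 p-value at 3.94 to 129 kb from the TSS. PIAS1, a SUMO ligase, had the strongest, from 46.5 to 219, and PYGB, the brain form of glycogen phosphorylase, kept even a GBR of 13.8. The genes with the most GBR of all had both kinds: SOX9, a regulator of cartilage, kept 5 of 21, ZFP36L1, which promotes mRNA decay, 8 of 20, PTPN1, a tyrosine phosphatase, 11 of 17 and MYC 7 of 17. The GBR of SOX9 lay 28.9 to 682 kb from its TSS. MTSS2 was the only gene nearest to 2 new GBR. The other genes named under the same rule had 1 each.

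Gene lists were read as GBR within 50 kb of the TSS of a member, and the background is the 64.9% lost among all 4627 siHic5/siNS GBR within 50 kb of a protein-coding TSS. In the glucocorticoid-induced genes common to many tissues, 22 of 52 GBR were lost, or 42.3% (29.9 to 55.8), and GBR of the same strength gave 43.0%. Of the 20 genes, 16 had a GBR, of which 10 had both lost and kept ones, 3 kept all and 3 lost all. PER1, a repressor of the circadian clock, kept both of its GBR, the stronger at 250.1 and rank 34. TSC22D3, which encodes GILZ, kept its 1 GBR at 46.2, and TNFAIP3, a deubiquitinase that limits NF-κB, kept its 1 at 69.4. DDIT4, an inhibitor of mTOR signalling, kept 7 of 8, the strongest at 258. KLF9 kept 2 of 3, the strongest at 176, and lost 1 at 28.6. The 3 genes that lost all were ZBTB16, a zinc finger repressor, with 3 GBR of at most 27.1, CEBPD with 1 at 21.7, 2.89 kb from its TSS, and FOXO3 with 2 of at most 20.5. At ERRFI1, an inhibitor of EGF receptor signalling, the order was the other way, since a GBR of 53.9 was lost and 1 of 31.5 was kept.

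Among 16 brakes on inflammation, 23 of 39 GBR were lost, or 59.0% (43.4 to 72.9), against 56.3% at the same strength. ZFP36, which destabilises cytokine mRNAs, kept 3 of 4, the strongest at 283. SOCS3, a feedback inhibitor of cytokine receptors, lost all 3, the strongest at 25.2, and CD163, a scavenger receptor, lost both, the stronger at 33.5. The dual specificity phosphatases lost 15 of 24, or 62.5% (42.7 to 78.8), against 55.7% at the same strength. DUSP1, the MAP kinase phosphatase that glucocorticoids induce, kept 2 of 5, the strongest at 147, and lost the GBR 0.203 kb from its TSS. DUSP2 kept 3 of 6, the strongest at 287. DUSP5 kept 2 of 7, and DUSP4 lost its 1.

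Genes of the AP-1 subunits had 25 GBR nearby, of which 18 were lost, or 72.0% (52.4 to 85.7), against 68.3% at the same strength. FOSL2 lost 4 of 4 within 50 kb and JUN 2 of 2, with values of at most 28.0 and 22.7. JUND kept its 1 GBR, 0.323 kb from the TSS, at 39.5, and FOSB kept 2 of 8. Genes of the ETS factors lost 10 of 13 (76.9%, 49.7 to 91.8, against 70.1% at the same strength). All GBR were lost at ETS1, ETS2, ELK1 and FLI1. ELF1 kept its 1 GBR, ELK3 kept 1 of 2 and ETV4 1 of 4. Focal adhesion and integrin genes, whose products include the partners of Hic-5 at adhesions, lost 20 of 29 (69.0%, 50.8 to 82.7, against 59.6% at the same strength). ITGA5, an integrin α subunit of the fibronectin receptor, kept 2 of 3, the strongest at 224, and lost the one 0.068 kb from its TSS. ITGA2 lost its 1 GBR at 67.4, and ITGB3 lost all 3. TGF-β signalling genes lost 8 of 17 (47.1%, 26.2 to 69.0, against 60.8%). SKI, SKIL, SMAD7 and SMURF2 kept all, and TGFBR2 and SMAD3 lost all.

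The remaining lists held fewer GBR or shares close to those of the same strength. The circadian genes lost 12 of 20, the Krüppel-like factors 5 of 13, the fasting genes 12 of 19, the growth arrest and survival genes 14 of 24, the bone genes 6 of 9, the SWI/SNF and CHD genes 5 of 6, and GR with its coregulators 2 of 6. BHLHE40, a clock repressor, kept 2 of 6, 1 of them at 0.451 kb from the TSS. KLF7 kept both of its GBR, the stronger at 147. PDK4, which limits the use of glucose in fasting, kept 2 of 4, the stronger at 77.9 and 0.611 kb from the TSS, and ANGPTL4, an inhibitor of lipoprotein lipase, kept 1 of 4, at 174. CDKN1A, which encodes the cell cycle inhibitor p21, kept the GBR 0.881 kb from its TSS, at 76.1, and lost 1 at 22.2. WNT5A lost its 1 GBR at 46.9, and MSX2, a homeobox factor of bone, kept both. For all 14 lists the share lost at the same strength lay inside the interval of the list's own share. With 6 to 52 GBR per list these intervals were wide. Differences of 15.3 points at the SWI/SNF and CHD genes and −13.7 at the TGF-β signalling genes lay inside them. Lists this small could thus hardly be told apart from other GBR of their strength.

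**Figure D5:**
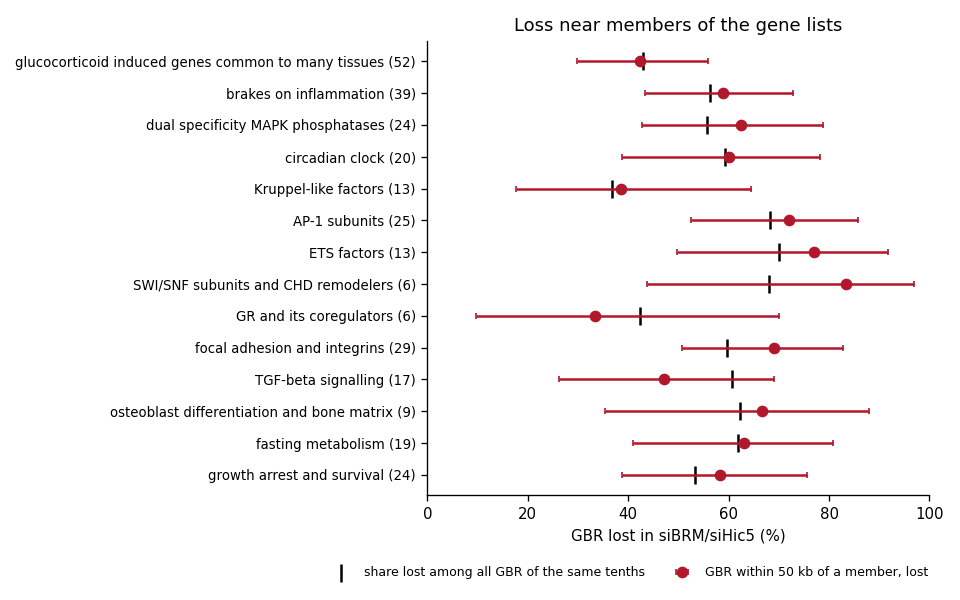
Percent of the GBR within 50 kb of the TSS of a list's members that were lost in siBRM/siHic5, with 95% Wilson intervals and the number of GBR in parentheses; vertical ticks give the share lost among all siHic5/siNS GBR of the same strength groups. Every tick falls inside its interval, with shares from 33.3% for GR and its coregulators to 83.3% for the SWI/SNF and CHD genes.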

How the data were processed

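GR ChIP-seq peaks of U2OS-GRα cells were analysed as deposited. The authors mapped reads with BWA to GRCh38/hg38 and called peaks with MACS2 on pooled replicates followed by IDR, and the deposited lists give a signal value, whose scale the sources describe differently, together with the p-value and the q-value of MACS2, both as −log10. Heights were not compared between lists. The members and gene lists were chosen with earlier results of these data known. Overlap was computed over columns of position, and the siNS/siNS and siBRM/siNS lists were treated alike. Differences of shares between kept and lost GBR were averaged over the 10 strength groups (Mantel-Haenszel weights), with 95% intervals from binomial variances. The share at the same strength is the share lost in each strength group of all siHic5/siNS GBR, weighted by the groups of the subset. Nearest genes were those with the closest TSS of the canonical transcript, in GENCODE release 44. No peak ended beyond its GRCh38 sequence (0), and 3 siHic5/siNS and 2 siBRM/siHic5 GBR lay on alternate sequences. Named sites were the 10 strongest of each class, and named genes the 6 with the most GBR, all lost or all kept, and the 6 with the most new ones; the mixed genes were chosen with their values known. List members were named where they had a GBR within 50 kb. Some named sites, genes and sequences are not reported here. Code was tested on simulated data. Computations used Python 3.11.15, NumPy 2.4.6, SciPy 1.17.1, pandas 2.3.3, Matplotlib 3.10.9 and bedtools 2.31.1. Results were recomputed with other overlap rules, thresholds, list sizes, strength measures, groupings, windows, patterns and distances.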

Additional observations from a re-analysis of the deposited data

How the results depend on the processing

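Of 53 alternatives, 32 left the value inside its 95% interval and 21 moved it out. A turned direction could be counted only for the AP-1 and ETS differences, whose main intervals excluded 0, and 0 were counted. The GRE difference, whose main interval held 0, was 2.87 (0.928 to 4.80) without mismatch. It was −4.60 (−8.16 to −1.04) without GBR called in siNS/siNS, so its sign depended on the setting. The AP-1 and ETS differences kept their sign in every alternative run. Requiring 50% coverage gave 66.4% lost and 3.98% lost in the strongest group. A common −log10 q-value threshold gave 50.5% lost, 5.94% new, 0.313% lost in the strongest group and 59.7% lost in siBRM/siNS. A −log10 q-value of at least 20 gave 48.4%, 5.73%, 0.444% and 60.9%. The 1000 strongest peaks of each list gave 22.2% lost, 21.3% new and 18.4% lost in siBRM/siNS, and lists of equal length, in which lost and new are nearly equal by construction, gave 23.4%, 22.8% and 20.3%. Taking the signal value as strength gave 2.20% lost in the strongest group. GRE without mismatch gave a difference of 2.87 points and ETS as CCGGAAGT alone −0.293. Without GBR called in siNS/siNS the GRE difference was −4.60 and that of AP-1 11.3, an alternative chosen after seeing the data, as was matching on GC content.

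No paired analysis was possible because the lists used here hold the replicates of each siRNA combination pooled into 1, and the leave-one-out fit was not run for the same reason. The lists hold no read counts, so the depth behind each peak was not available from them, and a GBR without a peak was not shown to be without GR.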

Other observations

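Some kept GBR stood far from the line of equal scores. The kept GBR with the highest ratio of −log10 p-values was an intergenic site 594 kb from the TSS of INHBA on chromosome 7, which had 15.2 and rank 7421 in siHic5/siNS and 133.7 and rank 215 in siBRM/siHic5, and it was also called in siCHD9/siHic5. A site in LOXL1, a lysyl oxidase of elastic fibres, had 16.7 and rank 6752 in siHic5/siNS and 70.8 and rank 618 in siBRM/siHic5. At the other end, a site in an intron of TENM4 had 98.8 and rank 489 in siHic5/siNS but 20.9 and rank 2879 in siBRM/siHic5, and a site 7.58 kb upstream of CXCL5, a neutrophil chemokine, had 74.4 and rank 846 against 18.0 and rank 3360. These 4 sites were chosen after their values were seen, and with 1 list per condition the differences have no replicate check.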
